A study of Schizosaccharomyces pombe with 6 samples.

Results

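The messenger RNA of wild-type fission yeast was described gene by gene, from the most abundant transcripts to the genes with no count, together with the spread of each gene between replicate libraries. The members were the 3 libraries whose genotype label is WT, of 6 libraries in all, and every one of the 5160 entries of the deposited gene table was described in them. The study compared a dsk1 mutant of Schizosaccharomyces pombe, written as a deletion in the design text and as a knockdown in the genotype label, with the wild type, and its title concerns repair of DNA breaks by recombination. The mutant libraries were not used here. The labels give whole cells, total RNA taken with Trizol and selection of poly(A) RNA with oligo(dT). They give no strain, mating type, growth medium or temperature, and they do not say whether the replicates came from separate cultures, so the spread between them may be technical. Library totals were 16424139, 16621420 and 18039520 counts for replicates 1, 2 and 3, and a floor of 3 counts in a library was 0.166 to 0.183 CPM (counts scaled to a common library size).

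Fission yeast is a rod-shaped, single-celled fungus that grows as a haploid, ferments glucose by glycolysis and spends much of its transcription on ribosomes. Haploid cells are of the mating type P or M, and they mate, enter meiosis and form spores when nitrogen runs out, under control of the transcription factor Ste11. A stress pathway, in which the MAP kinase Sty1 activates the transcription factor Atf1, turns on a shared set of defence genes in many kinds of stress. Many genes of meiosis are kept at a low level in growing cells.

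Replicate 2 stood apart from the other libraries, and this touches every measure of spread given here. Spread was taken from CPM scaled by the trimmed mean of M-values (TMM, which sets library sizes by the bulk of the genes), over the 4764 entries with a mean of at least 5 CPM. Replicates 1 and 3 had a Pearson correlation of 0.99 of log2 CPM across these genes, while replicate 2 had 0.96 with replicate 1 and 0.939 with replicate 3. Genes are not independent replicates, and these values are descriptions. Of the 4764 genes, 13 differed at least 2-fold between replicates 1 and 3 (0.273%), 264 between replicates 1 and 2 (5.54%) and 526 between replicates 2 and 3 (11.0%). Replicate 2 was the library farthest from the mean of the other 2 for 3338 genes (70.1%), against 935 for replicate 3 and 491 for replicate 1. It lay above the others for 1596 of these and below for 1742. No pair of libraries agreed within sampling noise: the chi-square per gene was 32.4 for replicates 1 and 3, 176 for 1 and 2 and 280 for 2 and 3. The 3 libraries were therefore kept as 3 samples.

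**Figure D1:**
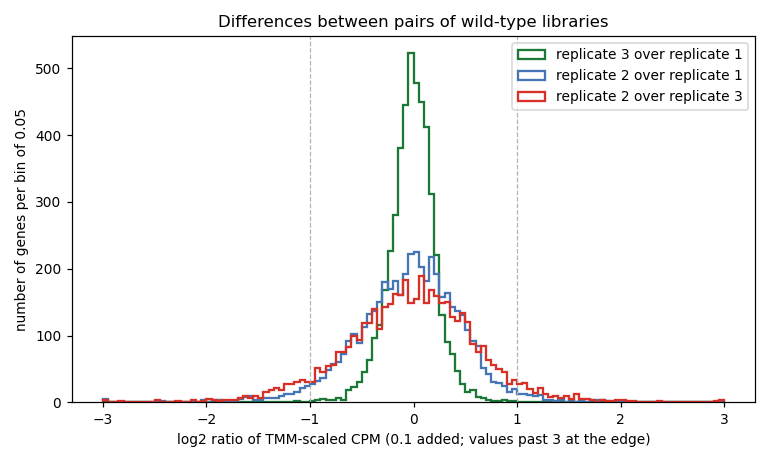
Distribution over 4764 genes of the log2 ratio of TMM-scaled CPM between pairs of wild-type libraries, in bins of 0.05, with dashed lines at 2-fold. The ratio of replicates 3 and 1 is narrow, with 13 genes past 2-fold, and both ratios that hold replicate 2 are wide, with 264 and 526 genes past 2-fold.

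The upstream sequences of 3 groups of genes are shown because their lists stand high in level or in spread: ribosomal protein genes held the largest share of the summed FPKM of any list, and mating and stress defence are among the lists with the largest median spread. All sequences are from RefSeq assembly ASM294v3, read 5′ to 3′ towards the gene, and a stretch of 60 bases around the motif is given, free of annotated mRNA exons. The 250 bases before each annotated start were searched on both strands. HomolD, a promoter element of ribosomal protein genes in fission yeast, was searched as CAGTCACA. It was found for 90 of 142 ribosomal protein genes (63.4%) and for 134 of 5109 genes in all (2.62%). The median distance from the motif to the annotated start was 43 bases in these 90 genes, and 89 of them had it within 100 bases. The 6 most abundant ribosomal protein genes with HomolD and a stretch free of exons follow, with the motif, in either orientation, in capitals.
rpl8 (II:2045406-2045465, plus strand): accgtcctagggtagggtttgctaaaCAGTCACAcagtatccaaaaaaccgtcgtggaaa
rps102 (I:898973-899032, minus strand): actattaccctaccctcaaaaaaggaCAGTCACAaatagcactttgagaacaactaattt
rpl1201 (III:691671-691730, minus strand): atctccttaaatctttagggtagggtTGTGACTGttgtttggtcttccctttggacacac
rpl701 (II:1792296-1792355, minus strand): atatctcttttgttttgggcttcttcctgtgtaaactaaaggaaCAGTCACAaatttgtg
rps602 (I:3319164-3319223, plus strand): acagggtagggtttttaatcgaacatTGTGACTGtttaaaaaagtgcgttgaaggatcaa
rpl3401 (I:4093810-4093869, minus strand): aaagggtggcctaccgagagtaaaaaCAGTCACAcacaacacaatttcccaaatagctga

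The core of the cAMP response element (CRE), which Atf1 binds, was searched as TGACGT. It was found for 7 of 25 stress defence genes (28.0%), all within 100 bases of the annotated start, and for 282 of 5109 genes in all (5.52%). The 5 of these 7 with an exon-free stretch follow, with the motif in capitals.
gpd1 (II:4035465-4035524, plus strand): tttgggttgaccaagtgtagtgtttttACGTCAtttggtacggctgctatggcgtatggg
pmp20 (III:119035-119094, minus strand): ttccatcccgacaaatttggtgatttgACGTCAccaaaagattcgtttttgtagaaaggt
ctt1 (III:58860-58919, minus strand): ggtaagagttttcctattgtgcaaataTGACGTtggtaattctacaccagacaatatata
ntp1 (II:206485-206544, plus strand): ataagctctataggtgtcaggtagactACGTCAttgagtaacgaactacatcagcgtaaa
gut2 (III:1843294-1843353, minus strand): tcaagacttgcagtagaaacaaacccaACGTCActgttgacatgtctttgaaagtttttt

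The TR box, the element bound by Ste11, was searched as TTCTTTGT and was found for 13 of 27 mating genes (48.1%) and 155 of 5109 genes (3.03%). The 6 most abundant of these mating genes follow, with the TR box in capitals. A match of letters is a description of the sequence and no evidence that a factor was bound.
mat1-Mc (II:2114391-2114450, plus strand): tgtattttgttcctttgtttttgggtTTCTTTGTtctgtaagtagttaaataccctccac
ste7 (I:453619-453678, minus strand): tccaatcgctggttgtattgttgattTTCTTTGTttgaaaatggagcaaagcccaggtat
mam4 (I:1230306-1230365, minus strand): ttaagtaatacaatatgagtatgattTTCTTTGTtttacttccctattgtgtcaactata
ste11 (II:3983223-3983282, plus strand): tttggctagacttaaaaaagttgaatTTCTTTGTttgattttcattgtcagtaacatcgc
ste4 (I:1296564-1296623, minus strand): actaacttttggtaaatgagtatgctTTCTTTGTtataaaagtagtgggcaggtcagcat
ste6 (III:1765881-1765940, plus strand): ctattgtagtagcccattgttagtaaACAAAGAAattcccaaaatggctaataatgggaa

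Abundance was compared between genes in FPKM (fragments per kilobase of gene length, scaled to the library), as deposited by the authors. The mean over the 3 libraries ran from 0 to 6469 FPKM. Among entries with a count the 25th percentile was 15.9, the median 38.4 and the 75th percentile 94.1 FPKM. At the top, 102 entries had at least 1000 FPKM and together held 30.4% of the summed FPKM. The next 1106 entries, from 100 to under 1000 FPKM, held 48.9%. The 3079 entries from 10 to under 100 FPKM were 59.7% of all entries and held 20.1%. Another 696 entries lay from 1 to under 10 FPKM, 117 had counts but under 1 FPKM, and 60 had no count in any library. A small set of genes thus carried much of the total: 16 genes held 10% of it, 72 held 25%, 286 held 50% and 2148 held 90%. The library with the steepest distribution was replicate 2, in which 232 genes held 50% of the summed FPKM, against 310 in replicate 1 and 313 in replicate 3. Its 10 most abundant genes held 8.80% of the summed FPKM, against 7.15% and 6.83%.

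**Figure D2:**
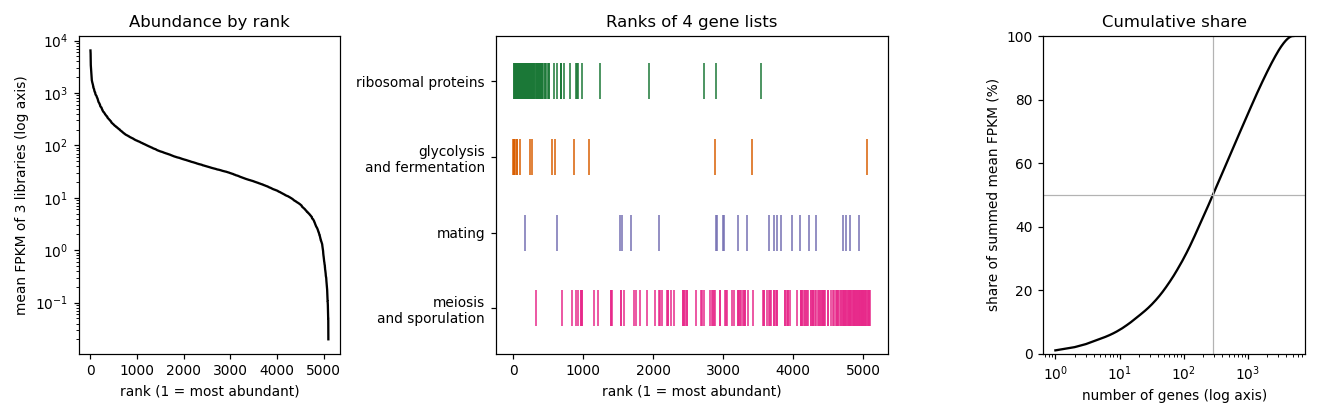
Left, mean FPKM of each gene with a count against its rank, on a log axis. Middle, the ranks of 4 gene lists, 1 tick per gene, and right, the cumulative share of summed FPKM, with grey lines at 50% and 286 genes; ribosomal protein and glycolytic genes crowd the high ranks and meiotic genes the low ones.

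The most abundant transcripts were those of sugar breakdown and protein synthesis. Of the 15 highest entries, 6 were of glycolysis, 2 were ribosomal proteins and 2 were translation factors. Of the 100 highest, 60 belonged to one of these lists, which together hold 199 of the 5160 entries. fba1, which encodes the aldolase of glycolysis, had the highest mean, with 5800.1, 8114 and 5492 FPKM in replicates 1, 2 and 3. Replicate 2 carries that rank, since hsp9, a heat shock protein gene, was the highest entry in replicates 1 and 3. tdh1, the glyceraldehyde-3-phosphate dehydrogenase, followed with 5494, 7943 and 5234 FPKM, and eno101, an enolase, had 5107, 7099 and 4728 FPKM. In all of these replicate 2 was highest, by more than the gap between the other libraries. gpm1, the phosphoglycerate mutase, had a mean of 4439.8 ± 960.4 FPKM (SD, n = 3), and pgk1, the phosphoglycerate kinase, had 3018 ± 838 FPKM. The triosephosphate isomerase gene tpi1 was even, with 3551, 3575 and 3750 FPKM (3749.69 in replicate 3). The 19 listed genes of glycolysis and fermentation had a median of 1034 FPKM and held 6.08% of the summed FPKM, although they are 19 of 5160 entries.

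Not every gene of that list was high. The isozymes differed widely: pdc101, the main pyruvate decarboxylase, had 1495 ± 348 FPKM, while its relatives pdc201, pdc202 and pdc102 had 32.0 ± 11.1, 21.8 ± 3.92 and 0.313 ± 0.483 FPKM. The second enolase gene, eno102, had 141 ± 30.7 FPKM against 5645 ± 1273 FPKM for eno101. The second glyceraldehyde-3-phosphate dehydrogenase gene, gpd3, had 113 ± 12.5 FPKM against 6224 ± 1495 FPKM for tdh1. In each set the main gene lay above its relatives in every library, while pdc201 and pdc202 overlapped between libraries.

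The machinery of translation took the largest share of any list. The 142 ribosomal protein genes had a median of 658 FPKM, against 37.8 over all 5160 entries, and together held 18.1% of the summed FPKM. Of the 142, 137 had at least 100 FPKM and 126 were in the top decile of all entries. The highest was ubi3, a fusion of ubiquitin to a ribosomal protein, at 3501 ± 525 FPKM. rpl8, shown above with its HomolD, had 2775, 3514 and 2906 FPKM. Among the 38 translation factors the median was 360.3 FPKM. The highest were tef103 and tef101, 2 of the genes of elongation factor EF-1 alpha, which carries aminoacyl-tRNA to the ribosome: tef103 had 3157, 4290.1 and 2753 FPKM, and tef101 had 3207, 3352 and 3209 FPKM. How reads were divided between the EF-1 alpha genes is not stated. The lowest translation factor, tif1102, had 14.5 ± 1.74 FPKM. Ribosome biogenesis genes, which build the ribosome but are no part of it, were far lower: the median of 49 was 56.4 FPKM, from 5.82 ± 2.48 FPKM for noc3, which lies wholly within SPBC887.02 on the other strand, to 552 ± 69.1 for the nucleolar protein gene gar2.

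Fission yeast has several genes for many of its ribosomal proteins, and the copies were not equal. For 50 ribosomal proteins with more than 1 listed gene, the highest copy had a median of 2.21 times the FPKM of the lowest. The ratio was at least 2 for 28 of them and at least 10 for 4. The widest was rpl34, with 1607 ± 244 FPKM for rpl3401 and 34.6 ± 6.89 FPKM for rpl3402. It was followed by rpl30, with 918 ± 70.1 FPKM for rpl3001 and 19.98 ± 7.01 FPKM for rpl3002, the lowest of all ribosomal protein genes. For rps14, rps1402 had 1085 ± 92.8 FPKM and rps1401 had 56.2 ± 23.4 FPKM. Copies that are near-identical share reads, and how the authors' counting divided such reads is not stated, so the split between copies is uncertain. rps1401 also lies wholly within the span of aar2 on the other strand.

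Other entries near the top came from stress, the cell surface and the cytoskeleton. hsp9 had 6360.5, 5573 and 5694 FPKM, and its mean was above that of eno101 and below that of tdh1. gpd1, a glycerol-3-phosphate dehydrogenase gene whose match to TGACGT is shown above, had 2944, 4274 and 2068 FPKM, which is a wide range for so abundant a gene. Actin, act1, had 3166, 3305 and 3399 FPKM. The order of libraries can change with the unit, as FPKM does not carry the TMM factors. In TMM-scaled CPM act1 and tpi1 were highest in replicate 2, and in FPKM both were highest in replicate 3. The neighbouring entries ecm33, a cell wall protein, and SPAC27E2.11c, a protein specific to Schizosaccharomyces, had 2804 ± 232 and 2730.0 ± 66.3 FPKM. Among metabolic genes, the methionine synthase gene met26 had 2707 ± 574 FPKM and the acyl-CoA desaturase gene SPCC1281.06c had 1459 ± 263 FPKM. Medians were 156 FPKM for 46 genes of amino acid synthesis, 209 for 25 of sterol and fatty acid synthesis and 149 for 33 of the proteasome, which degrades proteins. For 26 chaperone genes the median was 188 FPKM and none was under 87.8, the mean of aha1.

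The core histone genes, which encode the proteins that package DNA, were all abundant, with a median of 644 FPKM over 10 genes. htb1, the only gene of the list for histone H2B, was the highest at 1725 ± 314 FPKM. The H3 genes hht2, hht3 and hht1 had 1490.4 ± 84.1, 1093 ± 156 and 754 ± 125 FPKM. The H4 genes hhf2, hhf3 and hhf1 had 534 ± 109, 389 ± 19.0 and 230 ± 56.7 FPKM, so each H4 gene was below each H3 gene in mean. How reads were divided between similar copies is not stated, so this order of single genes is uncertain. For H2A, hta2 had 985 ± 10.8 FPKM and hta1 had 291 ± 51.9 FPKM. The variant H2A.Z gene, pht1, was lowest with 209 ± 32.3 FPKM, within the SD of hhf1.

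The mitochondrial genome is read into RNA that oligo(dT) need not capture. In these libraries the 11 entries of the mitochondrial genome were all under 1 FPKM. The highest, cox1, a subunit of cytochrome oxidase, had 13, 11 and 21 counts in replicates 1, 2 and 3, and atp8, of the ATP synthase, had none. Nuclear genes of the same complexes ranged widely: atp2, the beta subunit of the ATP synthase, had 1235 ± 107 FPKM and atp18 had 27.8 ± 3.90 FPKM, while cox5, of cytochrome oxidase, had 411 ± 9.89 FPKM and cox7 had 0.330 ± 0.340 FPKM. The 67 listed genes of respiration and the TCA cycle, mitochondrial ones included, had a median of 140.9 FPKM.

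The 10 genes with a symbol nearest to the median were mis16, rav1, ssl1, ypa1, imp2, loc1, mnh1, snu66, kap111 and pek1. pek1, a MAP kinase kinase, had 37.9, 36.4 and 38.2 FPKM, and mis16, a kinetochore protein, had 36.3, 45.0 and 32.1 FPKM. snu66, a component of the spliceosome, had 43.4, 13.4 and 55.9 FPKM at a similar mean, and it lies wholly within the span of ptb1 on the other strand. Medians close to that of all entries were found for the spliceosome (40.4 FPKM, 69 genes), transcription factors (39.7 FPKM, 39 genes), genes whose transcripts vary in the cell cycle (40.9 FPKM, 21 genes) and protein kinases (35.2 FPKM, 54 genes). The highest kinase gene was sty1, the stress MAP kinase, at 338 ± 35.5 FPKM, and the lowest was tel1, a DNA damage checkpoint kinase, at 1.35 ± 0.613 FPKM. The range of the kinases thus spanned more than 2 orders of magnitude. The kinase gene dsk1, the subject of the study, had 31.0 ± 2.11 FPKM.

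**Figure D3:**
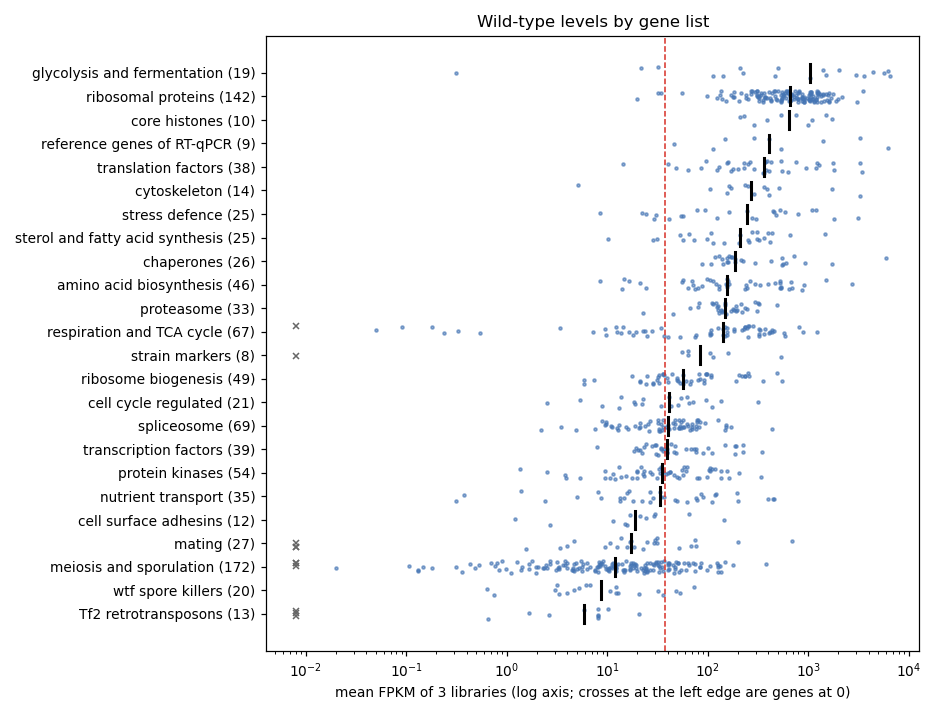
Mean FPKM of each member (blue points, 3 libraries) of 24 gene lists on a log axis, with the number of members in brackets; black bars are list medians, the dashed line is the median of all 5160 entries (37.8 FPKM), and crosses at the left edge are genes at 0. Glycolysis lies highest with a median of 1034 FPKM and Tf2 retrotransposons lowest with 5.90.

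The low end was led by genes of sexual differentiation and by repeats. The 172 genes of meiosis and sporulation had a median of 12.035 FPKM. Of them 20 were under 1 FPKM, against 177 of all 5160 entries, and 10 had at least 100, against 1208 of all. The highest, spo20, a phospholipid transfer protein that growing cells also use, had 383 ± 22.8 FPKM. The meiotic kinase gene mde3 had no count, but it lies wholly within the span of sec31 on the other strand. Of the markers of later meiosis, mei4, a transcription factor, had 15.1 ± 3.46 FPKM, the spore wall gene isp3 had 40.7 ± 17.8, the glucan synthase gene bgs2 had 18.9 ± 2.40 and spo6 had 0.693 ± 0.125. The wtf genes, a family of spore killers, had a median of 8.72 FPKM over 20 genes, from 0.633 for wtf16 to 72.9 for wtf14. The 13 Tf2 retrotransposon entries had a median of 5.90 FPKM. Among transporters, str3, for iron bound to siderophores, had 0.41, 0.32 and 0.21 FPKM, while the hexose transporter gene ght5 had 454 ± 162.

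Genes of both mating types were present in the wild-type RNA. mat1-Mc, the regulator of M cells, had 51.4, 35.5 and 43.5 CPM. mfm2, 1 of the genes of the M pheromone, had 117, 39.8 and 115 CPM, and mam2, the receptor that M cells use for P pheromone, had 52.1, 14.1 and 57.5 CPM. map2, the gene of the P pheromone, had 32.7, 87.4 and 24.3 CPM, and map3, the receptor of P cells, had 27.6, 46.3 and 21.0 CPM. The M markers mfm2 and mam2 were lowest in replicate 2, and the P markers map2 and map3 were highest there, and in each case the value of replicate 2 lay outside the range of the other 2. Not all genes of the mating types divided this way: map1, a transcription factor gene of P cells, was lowest in replicate 2. map3 is covered to 99.8% by his6 on the other strand, and without strand in the counting its reads cannot be told from those of his6. The M pheromone genes mfm1 and mfm3 had 1.54 ± 0.304 and 3.40 ± 1.17 FPKM, and mat1-Mi, mat3-Mc and mat3-Mm had no count. The 60 bases around the TR box of mat1-Mc, printed above, are the same in mat3-Mc, a silent copy, and reads of such copies cannot be placed uniquely. In bulk RNA, fewer cells of a type and less RNA per cell cannot be told apart, and the labels give no mating type.

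For 60 entries there was no count in any of the 3 libraries, 30 entries had a count in 1 library, 34 in 2 libraries and 5036 in each. These 60 are entries listed at 0, and some are genes that every cell uses. spt16, of the histone chaperone FACT, was listed at 0 and lies wholly within the span of nop2 on the other strand. The first 10 in the alphabet with a symbol were Tf2-13, Tf2-8, Tf2-9, atp8, bqt2, coa3, gon7, lsg1, mat1-Mi and mat3-Mc. They include bqt2, a meiotic telomere protein, gon7, of the tRNA-modifying KEOPS complex, and coa3, of cytochrome oxidase assembly. Neither bqt2 nor coa3 is overlapped by a protein-coding gene on the other strand. Entries at 0 were short, with a median exon length of 493.5 bases against 1682 over all entries, and the part of length was not tested. Of the 54 entries at 0 that matched RefSeq, 20 (37.0%) were covered to at least 50% by protein-coding genes on the other strand. The same held for 554 of 5055 entries with a count (11.0%). Dubious open reading frames made up 14 of the 60, against 76 of all 5160 entries. The mitochondrial genome gave 3 of the 60, against 11 of all 5160. ura4, a gene of uracil synthesis that is often deleted in laboratory strains, was also at 0. The other strain markers had counts in every library: leu1 532 ± 35.3 FPKM, his3 113 ± 23.5, ade6 63.3 ± 15.7, arg3 63.8 ± 8.79, trp1 104 ± 11.1, lys1 56.1 ± 8.93 and his7 159 ± 26.7. Of these, lys1 is wholly and his3 to 90.6% covered by genes on the other strand.

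Position and gene type went with abundance. Entries within 100 kb of a chromosome end were 189 in number, with a median of 12.8 FPKM, and they made up 15.1% of the lowest decile of genes against 2.15% of the highest. Entries described as dubious had a median of 2.02 FPKM over 76, and proteins specific to the species or genus had 15.7 over 291. The share of genes covered to at least 50% by genes on the other strand was 5.48% in the highest decile and 23.3% in the lowest. These sets overlap with each other, and their parts were not separated.

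The abundance order also went with features of the sequence. In the highest decile of 511 genes, HomolD was found for 19.8%, against 2.62% of all 5109, and CCCTACCC, the core of the companion element HomolE, for 8.61% against 1.55%. The ribosomal protein genes hold most of these, with 90 of the 134 genes with HomolD. TATAAA was no more frequent at the top, with 39.3% against 44.3%. Codon use differed with abundance: GGT was 60.9% of glycine codons in the highest decile, 38.7% in the fifth and 33.8% in the lowest. For lysine, AAG was 63.6%, 35.5% and 31.7% in the same deciles, and for arginine, CGT was 60.7%, 27.9% and 20.9%. Such bias to codons read by abundant tRNAs is a known mark of highly expressed yeast genes. Annotated exon length had a median of 1293 bases in the highest decile, 1877 in the fifth and 1048 in the lowest. Across genes the rank correlation of exon length with mean FPKM was -0.016, and with mean CPM, which is not divided by length, it was 0.318.

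Other motifs were searched in the same way. GTAAACA, the core of the FLEX element that Mei4 binds, was found for 73 of 172 genes of meiosis and sporulation (42.4%), against 14.8% of all 5109. GAANNTTC, where N is any base, is part of the heat shock element, and it was found for 12 of 26 chaperone genes (46.2%), against 9.51% of all. The same letters were found for 10 of 20 wtf genes, which are members of a family and may not be separate cases. TGACGT was found for 4 of 10 core histone genes, for 4 of 19 genes of glycolysis and fermentation, and for 10.8% of the highest decile against 5.52% of all.

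Across the 4764 genes with at least 5 CPM, the median coefficient of variation (CV, SD over mean) between the libraries was 15.5%, with 8.58% at the 25th and 25.2% at the 75th percentile. Counting error alone gives a median CV of 2.63% at these depths, and 216 genes (4.53%) had a CV at or below their own counting value. Without replicate 2 the median CV was 6.35%. The spread was largest for scarce genes, with a median CV of 20.5% in the lowest decile (5.01 to 17.0 CPM), where counting gives 7.44%. It was 13.2% in the sixth decile and 16.7% in the highest decile, where counting gives 0.892%. The common biological CV estimated by edgeR, which takes counting error out, was 23.9%, and it was 10.4% without replicate 2. For 554 genes the highest library was at least 2-fold the lowest (11.6%). Without replicate 2, 11 genes were.

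**Figure D4:**
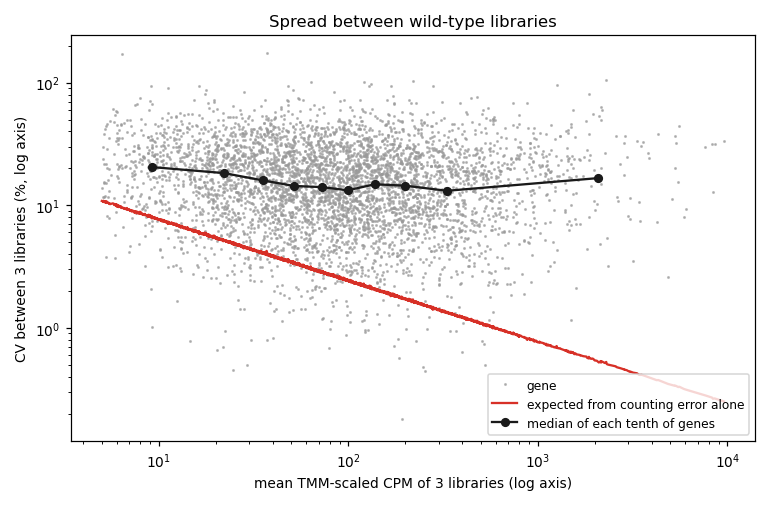
CV between the 3 wild-type libraries against mean TMM-scaled CPM, 1 point per gene of at least 5 CPM, on log axes; the red line is the CV that counting error alone would give and the black points are medians of deciles of the genes. The medians stay between 13.1% and 20.5% while the counting line drops to under 1%.

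The most even genes had CVs at or below counting error, which a few of 4764 genes reach whatever their biology. Among genes of at least 50 CPM the smallest CV belonged to tif471, of the cap-binding translation initiation complex, with 932, 934 and 935 CPM (CV 0.17%). SPAC26A3.14c had 193, 192 and 193 CPM (CV 0.18%), and sup35, the translation termination factor, had 398, 403 and 400.3 CPM (CV 0.635%). The others of the 10 most even were SPAC15A10.06, mpd2, ent1, gls2, phx1, vma8 and pdi3, with CVs of up to 0.737% for pdi3. They include vma8, of the vacuolar proton pump, gls2 and pdi3, of protein folding in the endoplasmic reticulum, and ent1, an epsin of endocytosis. Which genes came out most even depends on the TMM scaling. In FPKM, which TMM does not touch, tif471 had 199.7 ± 16.3 and sup35 had 158.4 ± 12.1 (SD). The histone gene hta2 had 985 ± 10.8 FPKM but a CV of 8.88% in TMM-scaled CPM.

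The genes often used as references in RT-qPCR were mostly more even than the average gene. Their median CV was 7.47% over 9 genes, and 1 of the 9 had a highest library at least 2-fold the lowest, against 11.6% of all genes of at least 5 CPM. adh1, alcohol dehydrogenase, had 4774, 5009.7 and 4809.8 CPM (CV 2.61%). The tubulin genes nda2 and nda3 had CVs of 4.05% and 6.01%, tbp1, the TATA-binding protein, had 7.47%, and act1 had 5582, 6666 and 5887 CPM (CV 9.24%). tdh1, the most abundant of the 9 on this scale, had 8022, 13267 and 7507 CPM (CV 33.2%). cdc2, the cyclin-dependent kinase, had 75.03, 25.3 and 110.3 CPM (CV 60.8%), with replicate 2 lowest and the other libraries also apart.

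The 15 widest genes include members of families of similar genes. How reads were divided between such copies is not stated, and its part in the spread was not tested. SPBPB10D8.05c, 1 of 4 neighbouring transporter genes, had 0.117, 111 and 0 CPM, with 2, 1678 and 0 counts, while the sum of the 4 was 531, 769 and 377 CPM (CV 35.4%). Tf2-4 had 19.0, 0.132 and 0.105 CPM, while the sum of the 13 Tf2 entries was 305, 330 and 306 CPM, with a CV of 4.45%. The Tf2 entries Tf2-3, Tf2-5, Tf2-6 and Tf2-12 had the same values in every library (35.0, 27.1 and 35.1 CPM), so the single copies give no separate information.

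In most of the others replicate 2 stood apart. rds1, a conserved fungal protein gene, had 1119, 5047 and 718 CPM (CV 104%). pdi4, a protein disulfide isomerase, had 115, 481 and 62.0 CPM (CV 104%), and mct1, of mitochondrial fatty acid synthesis, had 66.7, 261 and 34.4 CPM (CV 102%). In all of these replicate 2 was the highest and replicate 3 the lowest. The same order held for SPAC11D3.06, trz2, SPAC27D7.11c, rng9 and SPAC1805.14, with CVs of 93.3% to 101%. The opposite order held for fub2, a predicted proteasome regulator, with 165, 11.4 and 326 CPM (CV 94.0%). It held also for SPAC977.18, with 274, 22.0 and 542 CPM, for SPAC977.02, with 16.5, 0.861 and 31.7 CPM, and for SPBPB2B2.18, with 11.2, 1.06 and 21.2 CPM. fub2 lies 85.6 kb and the other 3 lie 31.1 to 36.1 kb from a chromosome end. Of the genes named here, rds1 is covered to 88.8% and SPAC11D3.06 wholly by genes on the other strand. SPAC977.02 belongs to a protein family specific to the species. The dubious entry SPCC417.15 had 0.761, 17.9 and 8.54 CPM, with replicate 1 farthest from the others. Over all 4764 genes, replicate 1 lay between the other 2 for 3031 (63.6%), replicate 3 for 1258 (26.4%) and replicate 2 for 475 (9.97%).

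Replicate 2 was at least 2-fold above the mean of the other 2 for 139 genes (2.92%) and at least 2-fold below it for 233 (4.89%). The sets differed in gene structure. Of the genes above, 133 matched RefSeq and 24.1% of them had an intron, while 57.6% of 231 matched genes below had one, against 48.7% of the 4742 matched genes of at least 5 CPM. TGACGT was found for 11.3% of those above and 4.76% of those below, against 5.50%. Outside the top decile, 42 of 114 genes above (36.8%) lay within 500 bases of a gene of the top decile, against 10 of 222 below (4.50%) and 12.8% of all. Across genes the log2 deviation of replicate 2 had a rank correlation of 0.252 with mean FPKM, -0.220 with the number of introns and -0.118 with exon length. These features go together in this genome and their parts were not tested.

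By list, the spread between libraries was widest for mating, nutrient transport and stress defence. The 22 mating genes of at least 5 CPM had a median CV of 34.3%, and 11 of the 22 had a highest library at least 2-fold the lowest, against 11.6% of all 4764 genes. For 16 of the 22 replicate 2 was the lowest library, and for 6 it was the highest, against 2171 and 2118 of all 4764. ste11, the master regulator, had 166, 61.4 and 128 CPM, and mei2, the RNA-binding protein that starts meiosis, had 19.2, 5.43 and 30.3 CPM (CV 68.0%). ste4, ste6 and map1, an adaptor of the pheromone response, a regulator of Ras and a transcription factor of P cells, had CVs of 52.1%, 51.3% and 51.5%, each with replicate 2 lowest. gpa1, the G protein of the pheromone response, had 194, 94.9 and 196 CPM. Other members were even: byr1, a kinase of the pathway, had 139, 119 and 131 CPM (CV 7.71%), and mam4 had a CV of 8.89%. The pheromone gene map2 had the largest CV of the list, at 71.2%, in the opposite direction. Without replicate 2 the median CV of the list was 9.19%.

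Stress defence genes ran mostly the other way. The 25 genes had a median CV of 27.6%, and 11 had a highest library at least 2-fold the lowest, against 11.6% of all. Replicate 2 was the highest library for 19 and the lowest for 6, against 2118 and 2171 of all 4764. gpd1 had 4992, 8292 and 3446 CPM, and ctt1, catalase, had 1474, 2806 and 1131 CPM. gut2, a mitochondrial glycerol-3-phosphate dehydrogenase, had 88.5, 294 and 98.99 CPM, and pyp2, the phosphatase of Sty1, had 155, 407 and 123 CPM. trx1 and srx1, of the thioredoxin system, had 2.21-fold and 2.97-fold ranges with replicate 2 highest, and the largest CV was that of caf5, a transporter of the spermine family, at 73.8%. The genes in which replicate 2 was lowest include fbp1, of sugar synthesis and repressed by glucose, with 200 CPM (199.66), 83.9 and 215 CPM, zym1, metallothionein, with 66.2, 46.0 and 76.3 CPM, and ntp1, trehalase, with 535, 354 and 581 CPM. gpd1, ctt1 and gut2 are among the genes with TGACGT shown above, and so is ntp1, so genes with the motif lay on both sides. Without replicate 2 the median CV of the list was 9.99%.

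**Figure D5:**
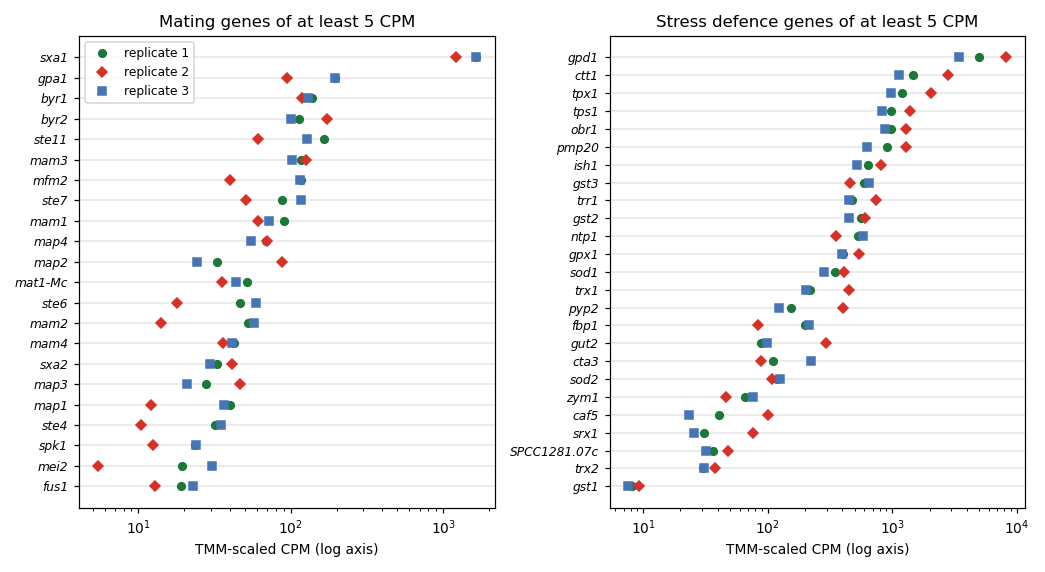
TMM-scaled CPM of each listed mating gene (left) and stress defence gene (right) of at least 5 CPM in the 3 wild-type libraries, on log axes, 1 row per gene and 1 symbol per library. Replicate 2 (diamonds) is lowest for 16 of 22 mating genes and highest for 19 of 25 stress defence genes.

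Nutrient transport was also a wide list, with a median CV of 28.4% over 32 genes, of which 11 had a highest library at least 2-fold the lowest, against 11.6% of all. ght8, a hexose transporter, had 1431, 3179 and 1223 CPM, and pho84, a phosphate transporter, had 126, 265 and 97.1 CPM. The largest CV among the listed transporters was that of ptr2, a peptide transporter, at 72.1%, with 26.1, 87.1 and 29.5 CPM. The list also holds car1, which the annotation names as arginase, an enzyme, and which had a CV of 72.2%. The copper transporters ctr4 and ctr5 were lowest in replicate 2, with 106, 39.1 and 119 CPM and with 167, 65.9 and 208 CPM. mae1, for malate, and zrt1, for zinc, were even, with CVs of 6.29% and 6.79%. Chaperone genes had a median CV of 13.3%, and 5 of 26 had a highest library at least 2-fold the lowest, against 11.6% of all, among them the Hsp70 genes ssa1, with 214, 689 and 257 CPM, and ssa2, with 1514, 3721 and 1222 CPM. The small heat shock protein gene hsp16 had 53.5, 195 and 112 CPM. hsp90 had 1114, 2133 and 1083 CPM, while the chaperonin genes cct1 and cct5 had CVs of 3.57% and 2.77%.

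The large constitutive lists differed by smaller steps but mostly one way. Replicate 2 was the highest library for 132 of 142 ribosomal protein genes, and the median log2 difference of replicate 2 from the mean of the others was 0.39. In only 2 of the 142 was the highest library at least 2-fold the lowest, against 11.6% of all genes of at least 5 CPM. These were rps1401, with 24.5, 58.5 and 27.7 CPM, and rpl3002, with 9.61, 18.7 and 8.85 CPM. The median CV of the list was 17.0%, and 3.57% without replicate 2. For glycolysis and fermentation the median log2 difference was 0.36, with replicate 2 highest for 13 of 18 genes of at least 5 CPM, and for amino acid synthesis it was 0.33, with replicate 2 highest for 32 of 46. The proteasome list ran the other way with a median of -0.18, and replicate 2 was lowest for 21 of 33, as in rpn2 with 626, 292 and 822 CPM. The smallest median CVs among lists of more than 20 genes were 9.37% for the proteasome, 10.4% for respiration and the TCA cycle and 10.6% for sterol and fatty acid synthesis. Over all genes of at least 5 CPM replicate 2 was highest for 2118 and lowest for 2171. These directions are relative to TMM scaling, in which the factor of replicate 2 was 0.909, against 1.04 and 1.06. As shares of the summed FPKM, which TMM does not touch, ribosomal proteins held 17.0%, 19.3% and 17.8% in replicates 1, 2 and 3, stress defence 1.91%, 2.43% and 1.57%, mating 0.282%, 0.163% and 0.278% and the proteasome 0.968%, 0.796% and 1.08%, so each kept its direction.

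Genes of meiosis and sporulation had a median CV of 17.6% over 134 genes of at least 5 CPM, with no common direction. Replicate 2 was highest for 54 and lowest for 63, against 2118 and 2171 of all 4764. mug133, of a family specific to the species, had 55.1, 164 and 31.6 CPM, and mde6 had 372, 69.8 and 491 CPM. The wtf genes had replicate 2 lowest for 14 of 17, against 2171 of all 4764, with a median log2 difference of -0.56. How reads were divided between members of this family is not stated. wtf9 had 67.8, 24.8 and 65.7 CPM. Among spliceosome genes, bpb1, the branch point binding protein, was even with 340, 342 and 346 CPM (CV 0.95%), and prp38 had 28.8, 103 and 22.1 CPM (CV 87.6%). Among transcription factors, mbx1, a MADS-box factor, had 86.5, 27.9 and 109 CPM (CV 56.1%), while prr1, the most abundant of the list, had a CV of 8.002%. Core histone genes had a median CV of 15.6%, close to the 15.5% of all genes of at least 5 CPM. None of the 10 had a 2-fold range, against 11.6% of all.

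Location and gene class also went with spread. Of 116 genes of at least 5 CPM within 100 kb of a chromosome end, 31 had a highest library at least 2-fold the lowest (26.7%), against 11.6% of all. The share was 22.2% of 194 proteins specific to the species or genus and 9 of 16 loci assembled by the authors. Genes covered to at least 50% by genes on the other strand had a share of 15.4%, and genes with no such overlap had 11.6%. Spread also went with level, as the share was 19.9% in the lowest decile of CPM. Entries near an end and the specific proteins had low medians, 12.8 and 15.7 FPKM against 37.8 over all entries. The parts of level, location and class were not separated.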

How the data were processed

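RNA sequencing libraries of 3 wild-type samples, grouped by the genotype label, were described without any test. Per the file headers, the authors deposited counts and FPKM values per gene and library. Tools listed in the submitters' processing notes, without versions or roles, are RSEM, StringTie, HISAT2, Bowtie2, DESeq2 and fastp. Not given in the sources used here were the build, any use of strand and the handling of multiply matching reads. These set how near-identical and overlapping genes are counted. The 6 columns of the mutant libraries and a filtered table of changed genes were not used.

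Levels between genes were compared by the authors' FPKM. Spread was computed from the deposited counts scaled to CPM with TMM factors (edgeR 4.0.16 in R 4.3.3), over entries with a mean of at least 5 CPM. DESeq2 1.42.0 size factors were an alternative. For log2 values 0.1 CPM was added. A count of 3 was the floor, and floors and counting errors cover counting only, as the labels name PCR and no molecular identifiers. The spread estimates were checked on simulated counts. RefSeq ASM294v3 matched 5109 of 5160 entries and gave exons, overlaps, positions and sequences. Cover on the other strand is by all protein-coding genes there together, and a gene named for it has the largest overlap.

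Named genes were the 15 with the highest mean FPKM, the 10 with a symbol nearest the median, the first 10 symbols among entries at 0, the 15 with the largest CV, the 10 with the smallest CV among genes of at least 50 CPM, the highest, the lowest and the most variable member of each of 24 gene lists, and all members of the reference, strain marker and histone lists. Other named list members were chosen after their values were seen. Members and lists were chosen with earlier results of these data known, and 9 listed names matched no entry. Lists can share genes.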

Additional observations from a re-analysis of the deposited data

How the results depend on the processing

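The largest dependence was on 1 library. Leaving out each replicate gave 11 to 533 genes with a highest library at least 2-fold the lowest, a median CV of 6.35% to 19.0% and a common biological CV of 10.4% to 30.9%, with the lowest of each without replicate 2; without replicate 3 the gene count was 267. All 24 lists had a lower median CV without replicate 2. The number of genes with no count was 66 to 76 and that of genes holding 50% of the summed FPKM 270 to 312 with a replicate left out. At 1.5-fold, 1619 genes had such a range in place of 554. With library totals alone, replicate 2 was farthest for 71.5% of genes in place of 70.1%. The rank correlation with exon length was 0.318 for CPM in place of -0.016 for FPKM. The other planned scalings, filters and units kept the gene counts within 1.5 times, from 440 to 728 for the 2-fold range; 476 were found without 509 genes of uncertain counts, and no filter gave a common biological CV of 24.8%. No paired analysis was possible because no groups were compared. At these depths 60 entries had no count, and 89 had under 3 counts in each library. The part of depth in the entries at 0 was not tested.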
